A study of Mus musculus with 45 samples.

Results

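The MHC class II presentation genes are the 10 mouse genes H2-Aa, H2-Ab1, H2-Eb1, Cd74, H2-DMa, H2-DMb1, H2-DMb2, H2-Oa, H2-Ob and Ciita, taken by gene symbol from 28196 genes measured by RNA sequencing. All 10 were present in both deposited tables and all 10 passed the filter on low values. The study followed mouse splenic B2 cells (conventional B cells, isolated with a kit that removes CD43+ cells) as they became antibody-secreting cells in culture. It holds 45 libraries in 15 groups of 3.

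Day 0 B cells and the TLR and BCR cultures at days 4, 7 and 10 came from wild type C57BL/6 males labelled 7 weeks old. Wild type LPS cultures at days 4 and 7 came from females labelled 9 weeks old. The same sex and age are given for all 6 groups of Prdm1Δex1A cells, here dEx1A, sampled at days 4 and 7 of each of the 3 cultures. These carry a deletion of exon 1A of Prdm1, the gene for the plasma cell regulator Blimp-1, in a C57BL/6 background. The labels call days 4 and 7 plasmablasts and day 10 plasma cells. For the TLR culture, irradiated L cells expressing CD40L were supplemented with IL-5 and IL-4 (both 50 ng/mL) and 5 µg/mL of LPS. The BCR culture had F(ab')2 anti-IgM/IgG at 12 µg/mL in place of LPS. In both, cells were taken off the L cells at day 2 and given IL-6 (10 ng/mL), APRIL (100 ng/mL), amino acids and lipids from day 4. What the separate LPS culture contained is not stated in the labels. Whether the 3 libraries of 1 group derive from different mice is not labelled either, so p-values measure the spread between these libraries, which may be technical.

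MHC class II molecules carry peptides from endosomes to the cell surface, where CD4+ T cells read them. Their α and β chains assemble with the invariant chain, which blocks the groove until proteases degrade it in endosomes. H2-DM then exchanges the last invariant chain fragment for peptide, and H2-DO, made mainly in B cells, restrains H2-DM. CIITA is the coactivator that switches these genes on together, through a promoter module bound by RFX, CREB and NF-Y, and Blimp-1 is known to silence the Ciita promoter used in B cells.

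H2-Aa, H2-Ab1, H2-Eb1, the H2-DM genes and the H2-DO genes lie on chromosome 17 of GRCm38, between H2-Oa (start 34092340) and H2-Eb1 (end 34316674). Ciita lies on chromosome 16 (10480059 to 10528418) and Cd74 on another chromosome. RefSeq promoter windows (GRCm38.p6, 250 bases before to 50 after each start) were at hand for 7 of the 10 genes: H2-Aa, H2-Eb1, H2-DMa, H2-DMb1, H2-DMb2, H2-Oa and H2-Ob. H2-Ab1, Cd74 and Ciita were not matched. A window of each of these 7 genes held GATTGG, the core of the Y box that NF-Y reads, on the gene's own strand. For H2-DMa this was the second of its 2 windows. GATTGG occurred on either strand in 16.1% of all 32851 windows. The letters AACNNATG, from the X box that RFX reads, occurred in 8.86% of windows. AACNNATG followed by GATTGG on the same strand, 20 to 45 bases downstream, occurred in 28 windows (0.085%) and in those of 4 genes of the set: H2-Eb1, H2-DMb1, H2-DMb2 and H2-Ob. These motifs and their spacing were chosen after the sequences had been seen, and a match is a description of letters only. The stretches around GATTGG follow for 6 of the genes, the 4 with both elements first and then H2-Aa and H2-Oa, where only GATTGG was found, because GATTGG is what the 7 matched genes share outside the expression data. They are written 5′ to 3′ on the gene's strand, with capitals marking GATTGG and, where present, AACNNATG.
H2-Eb1, plus strand, chr17:34305763-34305816: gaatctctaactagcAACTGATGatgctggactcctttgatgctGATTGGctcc
H2-DMb1, plus strand, chr17:34153085-34153138: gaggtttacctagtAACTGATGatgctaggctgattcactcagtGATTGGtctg
H2-DMb2, plus strand, chr17:34145114-34145167: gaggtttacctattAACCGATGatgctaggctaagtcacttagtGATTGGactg
H2-Ob, plus strand, chr17:34238803-34238856: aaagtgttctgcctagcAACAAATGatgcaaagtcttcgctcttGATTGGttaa
H2-Aa, minus strand, chr17:34287863-34287916: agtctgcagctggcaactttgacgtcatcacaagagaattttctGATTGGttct
H2-Oa, plus strand, chr17:34092291-34092344: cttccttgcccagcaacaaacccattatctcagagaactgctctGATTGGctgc
The 2 elements start 27 bases apart in H2-Ob, 29 in H2-Eb1 and 30 in H2-DMb1 and H2-DMb2.

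The libraries held 15.1 to 35.6 M (10 to the power 6) reads, as recovered from the deposited values. Wild type LPS libraries and all dEx1A day 7 libraries (15) were below 20 M and the other 30 above. The same 15 libraries stood apart in their balance of GC-rich against GC-poor genes. A GC offset was taken as the median log2 deviation of the GC-richest quartile of 6574 well-measured genes less that of the GC-poorest quartile. Its range was 0.61 to 1.48 over those 15, against -1.65 to 0.49 over the other 30. Within groups it moved with most of the set. Over 45 libraries, the deviation of Cd74 from its group mean followed that of the offset with a Pearson r of 0.96, against 0.93 for H2-DMa, 0.92 for H2-Oa, 0.87 for H2-Eb1 and 0.82 for H2-Ab1. It was 0.70 for H2-DMb1, 0.66 for Ciita, 0.63 for H2-DMb2, 0.47 for H2-Aa and -0.15 for H2-Ob. Transcripts of H2-Aa and H2-Ob are 46.5% and 46.0% GC, below the 49.8% median of protein-coding genes, and the other 8 are 51.8% to 57.3%. Each comparison was therefore repeated on values corrected for GC and length in each library, and corrected values are given beside the results. The correction is fitted over many genes and did not act alike on each member. In wild type TLR day 4, replicate 3 of H2-Ab1 was lowest before correction (13.03, 13.11 and 12.45). It was highest after correction over the 21 wild type libraries (12.72, 12.59 and 13.03). For H2-DMa it stayed lowest, at 11.70, 11.83 and 10.70. A change of sign after correction therefore does not show which value is right.

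**Figure D1:**
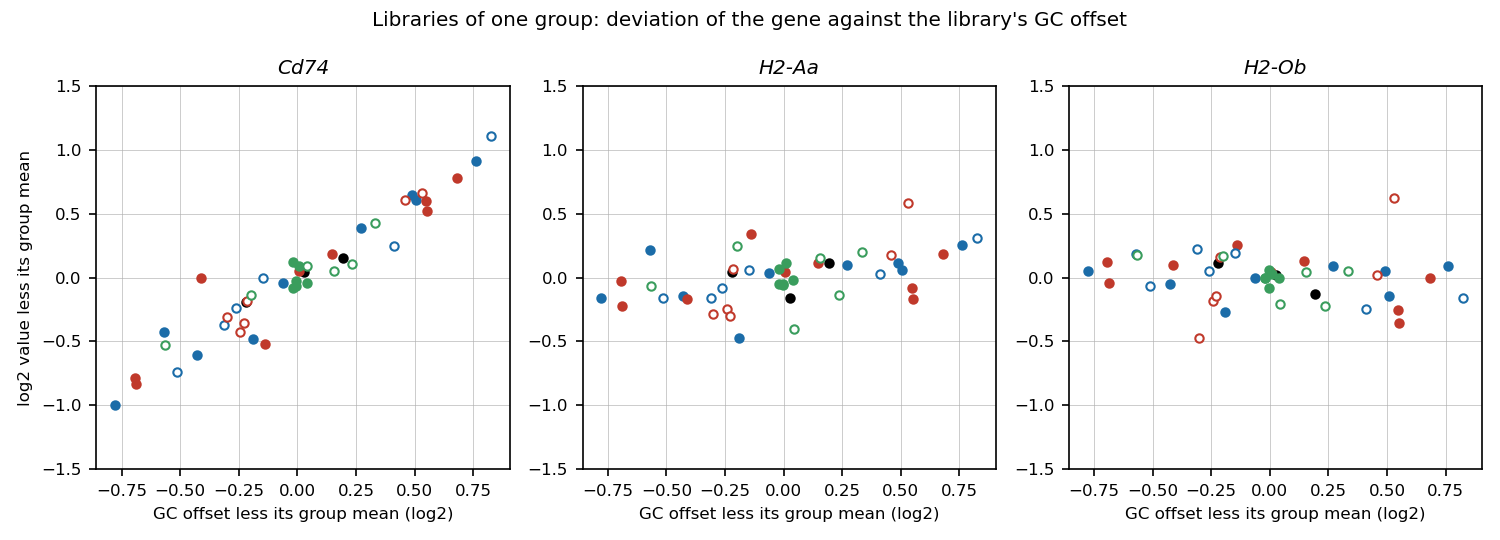
Deviation of the log2 deposited value of Cd74, H2-Aa and H2-Ob from the group mean (vertical) against the deviation of the library's GC offset from its group mean (horizontal, log2), 1 point per library (45), filled for wild type and open for dEx1A, with black for day 0, blue for TLR, red for BCR and green for LPS. Cd74 rises along the axis (r = 0.96) and H2-Ob does not (r = -0.15).

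The targeted gene checks the genotype labels in part, since these gene totals do not separate exon 1A. Wild type Prdm1 values on the log2 scale were 6.01 to 6.95 at day 0, 13.04 to 13.43 in TLR day 7 and 12.33 to 12.56 in BCR day 7. In dEx1A cells they were 11.72 to 11.90 in TLR day 7 and 10.02 to 10.80 in BCR day 7, and neither pair of groups overlapped. In TLR day 4 the wild type and dEx1A values overlapped (9.66 to 9.86 and 9.71 to 10.61). They did not in BCR day 4 (9.32 to 10.23 and 7.27 to 8.82) or LPS day 4 (12.34 to 12.68 and 9.60 to 10.01). In LPS day 7 Prdm1 was 12.40 to 12.77 in wild type and 11.10 to 11.32 in dEx1A cells, without overlap. The plasma cell gene sum (Jchain, Sdc1, Xbp1, Prdm1, Irf4 and Tnfrsf17) was 49483 to 90703 normalised reads in dEx1A BCR day 7 against 429027 to 575541 in wild type BCR day 7. In TLR day 7 it was 360149 to 440427 in dEx1A against 1128371 to 1638707 in wild type cells. The genotypes overlapped in LPS day 7, at 279273 to 327592 in dEx1A and 307765 to 453736 in wild type cells. At day 4 this sum overlapped in TLR culture (31441 to 44951 in dEx1A, 29509 to 36853 in wild type). It lay apart in BCR culture (13375 to 19610 and 21181 to 32838) and in LPS culture (18097 to 35481 and 115779 to 120276).

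In day 0 B cells all 10 genes were transcribed, and all but Cd74 and H2-DMa had their highest group mean there. Per kilobase of the longest transcript, Cd74, the invariant chain, led with 82434 ± 9701 normalised reads (SD, n = 3). H2-Ab1 (24608 ± 1472), H2-Eb1 (17848 ± 1479) and H2-Aa (17710 ± 1683), the β and α chains of I-A and the β chain of I-E, came next, and the H2-Eb1 and H2-Aa levels did not differ beyond their spread. H2-Ob stood at 9579 ± 797 and H2-DMb2 at 8522 ± 786. H2-DMb1 (2111 ± 122), H2-DMa (1525 ± 211), H2-Oa (1523 ± 128) and Ciita (1144 ± 134) made up the low end. The β chain of H2-DO thus exceeded its α chain H2-Oa on this scale. The order depends on the lengths used, 3223 bases for H2-Aa and 1212 for H2-Ab1. Before division by length H2-Aa was above H2-Ab1 at day 0 (log2 means 15.80 and 14.86). Which transcripts were expressed was not tested. H2-DMb1 shares 18.9% of its 76-base windows with H2-DMb2. H2-DMb2 shares 19.7% of its windows with other genes, among them H2-DMb1, Zw10, 1700055D18Rik and Hip1r. The split of reads between these genes is therefore uncertain.

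**Figure D2:**
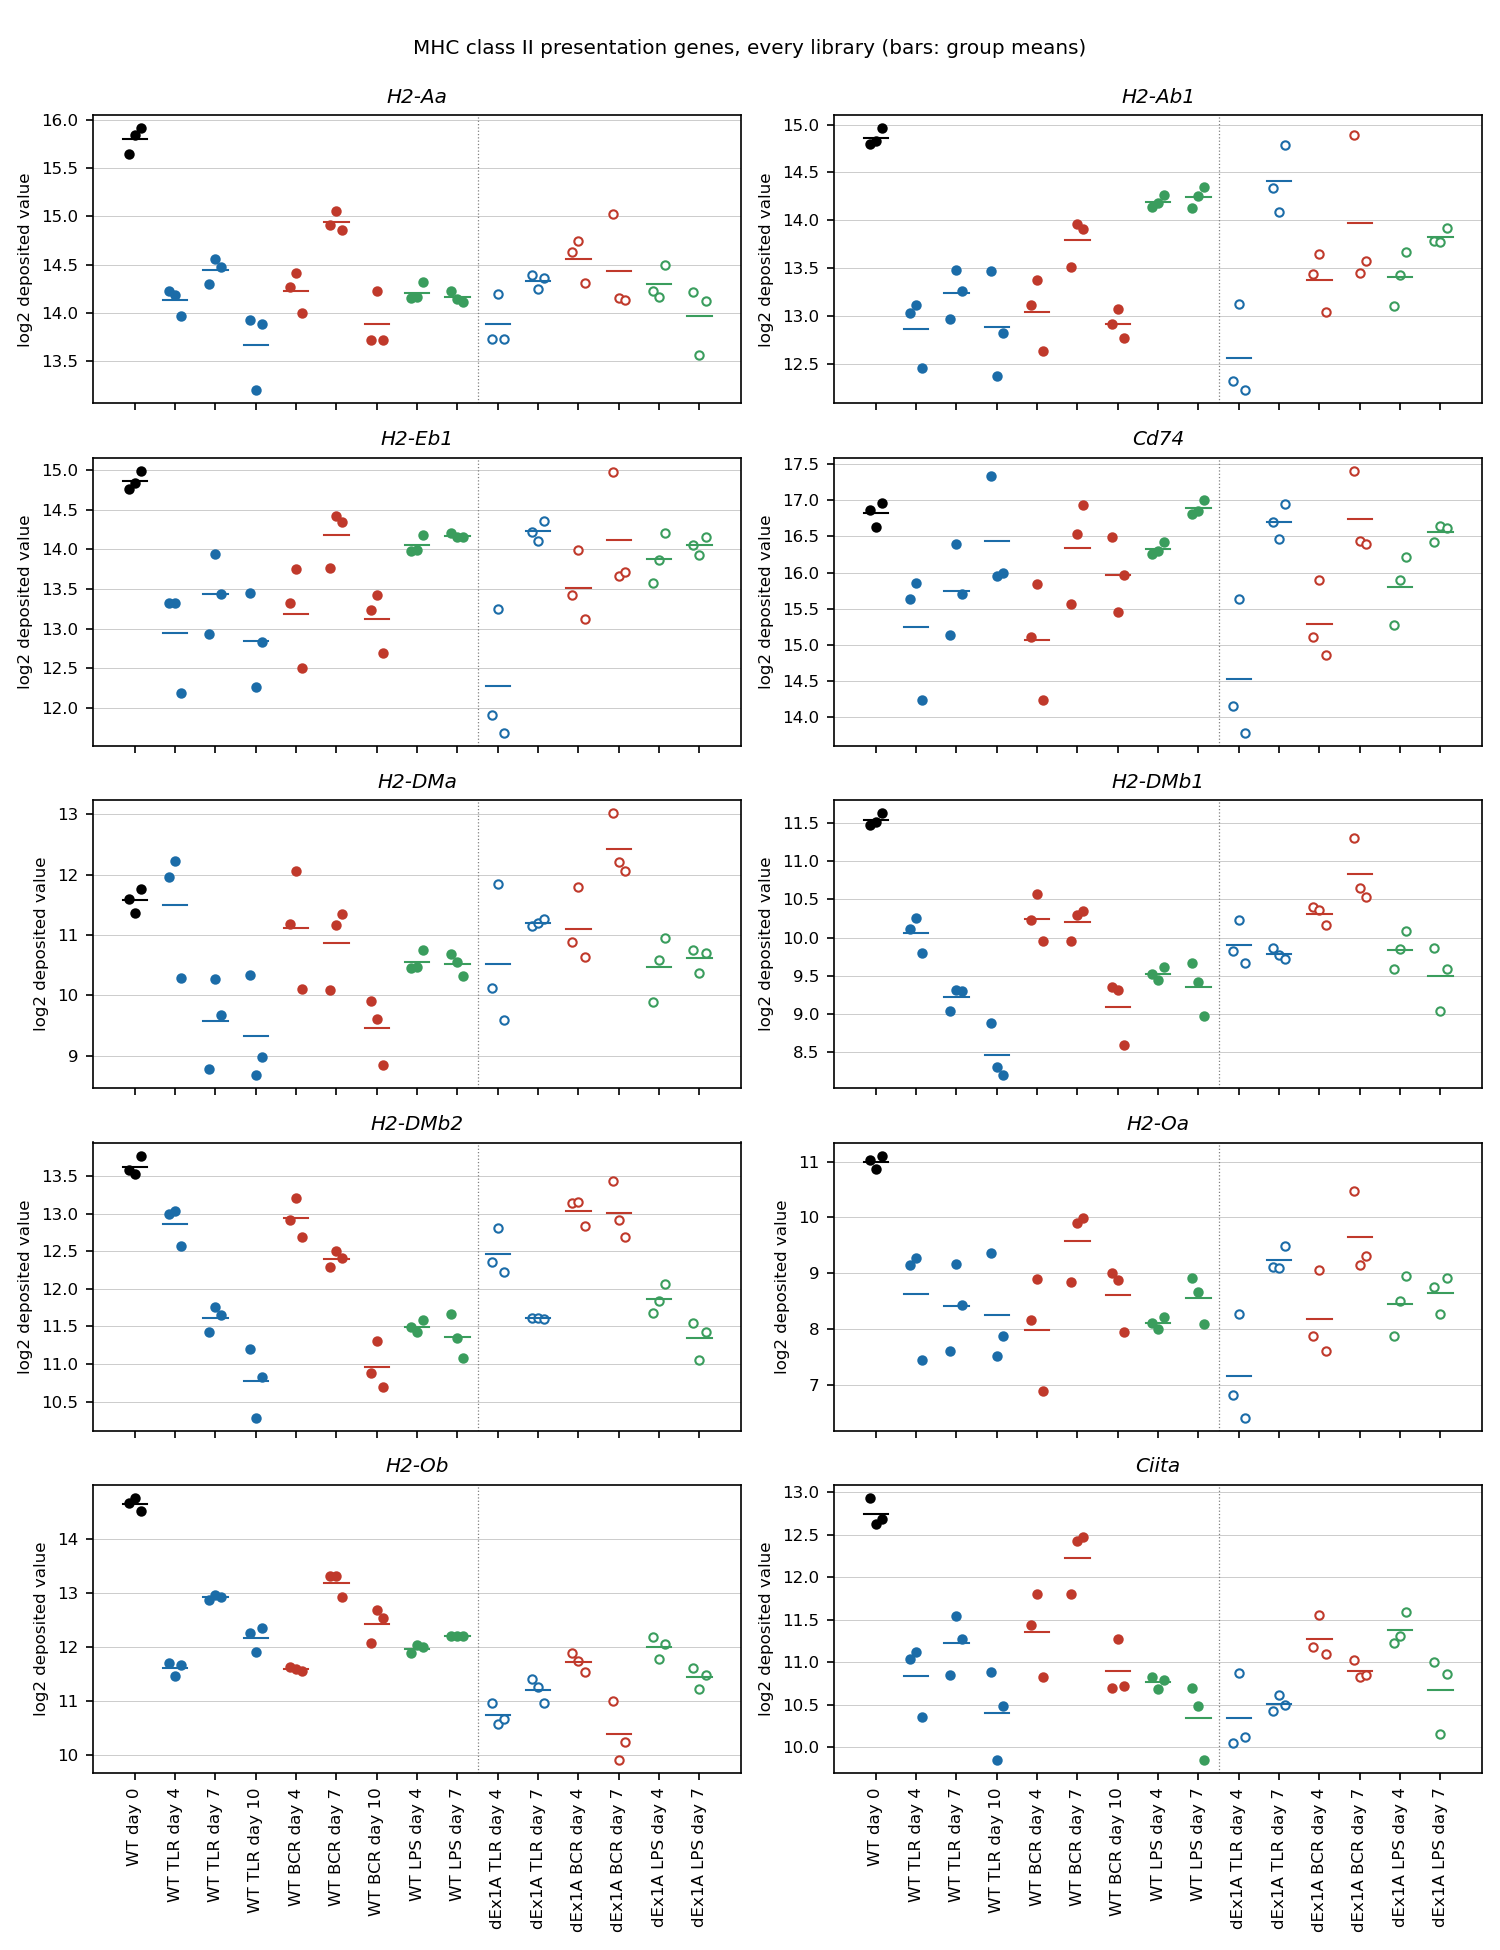
Log2 deposited value (vertical) of each of the 10 genes in all 45 libraries, by group (horizontal), with bars at group means; filled points are wild type, open points dEx1A, and black, blue, red and green stand for day 0, TLR, BCR and LPS. H2-Ob falls from 14.6 at day 0 to 11.6 at TLR day 4 and is back at 12.9 at TLR day 7 in wild type cells, while the day 4 values of GC-rich genes such as Cd74 spread widely.

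Nearly the whole set was lower in both cultures than in the B cells they were made from. From day 0 to day 4, 9 of 10 genes fell in TLR culture and 9 of 10 in BCR culture by limma at an adjusted p of 0.05, where 23.5% and 24.5% of all genes tested fell and 24.9% and 26.1% rose. The median difference over the 10 was -1.79 and -1.62 on the log2 scale, against 0.01 and 0.00 over all genes. The exception in both was H2-DMa, with differences of -0.08 (limma adjusted p = 0.922) and -0.46 (0.536).

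H2-Ob, the H2-DO β chain, changed most. Its log2 values were 14.66, 14.75 and 14.51 at day 0, 11.70, 11.46 and 11.66 in TLR day 4 and 11.63, 11.58 and 11.54 in BCR day 4. The day 0 libraries lay far above both cultures, with differences of -3.03 ± 0.16 (SE) and -3.06 ± 0.16, and limma adjusted p-values of 4.82e-11 and 3.89e-11. Per kilobase this is 9579 normalised reads at day 0 against 1165 ± 102 and 1143 ± 36.0. H2-Aa, the I-A α chain, stood at 15.64, 15.84 and 15.91 at day 0 and at 13.97 to 14.41 over the 6 day 4 libraries, without overlap, and fell by 1.67 ± 0.19 in TLR and 1.57 ± 0.19 in BCR culture (limma adjusted p = 1.12e-06 and 2.01e-06). Ciita, the coactivator, stood at 12.93, 12.62 and 12.68 at day 0, at 11.04, 11.12 and 10.35 in TLR day 4 and at 11.44, 11.80 and 10.82 in BCR day 4. It fell by 1.91 ± 0.30 and 1.39 ± 0.30 (limma adjusted p = 3.98e-05 and 0.000795), and by 0.89 in BCR culture after GC correction. H2-Ab1 and H2-Eb1, the β chains of I-A and I-E, fell by 1.67 to 2.00 in both cultures. H2-DMb2 fell least, by 0.76 and 0.69.

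Replicate 3 was lowest for 9 of the 10 genes in TLR day 4 and for all 10 in BCR day 4, and its GC offsets, -1.25 and -1.27, were the lowest in these groups. H2-DMa values, for example, were 11.96, 12.23 and 10.29 in TLR day 4. Without TLR day 4 replicate 3 the fall of Cd74, the invariant chain, no longer passed (-1.58 ± 0.51 with it, -1.08 without, limma adjusted p = 0.101). Without BCR day 4 replicate 3 those of Cd74 (-1.34, 0.0507) and H2-DMb2 (-0.56, 0.0589) did not pass. After GC correction the same count of 9 fell in each culture. The B cell marker sum (8 genes, among them Ms4a1, Cd79a and Cd79b) was lower as well, at 161015 to 162792 normalised reads at day 0 against 36500 to 42734 in TLR day 4 and 31954 to 38961 in BCR day 4. Values are relative to the other RNA of each library. Fewer B-like cells, less of these RNAs per cell and more of other RNA cannot be told apart in these bulk samples. Fibroblast markers (8 genes) summed to 34 to 110 at day 0, 1565 to 3278 in TLR day 4 and 2547 to 4730 in BCR day 4. Their part was not tested.

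Between days 4 and 7 in TLR culture H2-Ob rose and the 3 H2-DM genes fell. The other H2-DO gene, H2-Oa, did not pass (-0.22 ± 0.59, limma adjusted p = 0.808). H2-Ob rose to 12.86, 12.96 and 12.91, above all day 4 values (1.30 ± 0.16, limma adjusted p = 4.93e-06). The H2-DM genes, which load peptide, fell: H2-DMb2 from 12.99, 13.03 and 12.57 to 11.43, 11.76 and 11.65 (-1.25 ± 0.21, 0.000149), H2-DMb1 by 0.84 ± 0.22 (0.00602) while H2-DMa fell by 1.92 ± 0.57 (0.0139). Thus 1 gene of the set rose and 3 fell, where 17.7% and 18.6% of all genes did. The call on H2-DMa was lost without TLR day 4 replicate 1 (-1.68, limma adjusted p = 0.0611), TLR day 4 replicate 2 (-1.55, 0.0761) or TLR day 7 replicate 1 (-1.52, 0.0787). After GC correction 4 genes rose (H2-Ob with H2-Ab1, H2-Eb1 and Cd74) and 3 fell, against 21.4% and 31.4% of genes, and the fall of H2-DMb1 shrank to -0.44.

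In BCR culture H2-Ob rose as well from day 4 to day 7, to 13.30, 13.31 and 12.92 (1.59 ± 0.16, limma adjusted p = 5.8e-07), and H2-Aa rose to 14.91, 15.05 and 14.86, above its day 4 range (0.71 ± 0.19, 0.00831). H2-Ab1, H2-Oa and Ciita passed as well, for 5 genes up and 0 down, against 15.3% and 15.2% of all genes. Those 3 calls were each lost without BCR day 4 replicate 1, BCR day 4 replicate 3, BCR day 7 replicate 2 or BCR day 7 replicate 3, leaving 2 or 3 genes. Their values were then 0.55 to 0.79 for H2-Ab1, 1.05 to 1.69 for H2-Oa and 0.61 to 0.92 for Ciita. After GC correction 7 rose and 0 fell, against 19.9% and 28.8% of genes. The H2-DM genes had differences of -0.25, -0.05 and -0.54 in the order H2-DMa, H2-DMb1 and H2-DMb2, none passing. Quantile normalisation ended the calls on H2-Aa (0.44, 0.137), H2-Ab1 (0.72, 0.0741) and Ciita (0.87, 0.0514).

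At day 7 the H2-DM β genes were lower in TLR than in BCR culture. H2-DMb1 was 9.04, 9.31 and 9.30 against 9.95, 10.30 and 10.35 (-0.98 ± 0.22, limma adjusted p = 0.0126), and H2-DMb2 11.43, 11.76 and 11.65 against 12.29, 12.50 and 12.41 (-0.79 ± 0.21, 0.0339). Neither pair of groups overlapped. These 2 of 10 compare with 2.5% of all genes lower in TLR culture, and 0 of 10 with 3.77% higher. The call on H2-DMb1 was lost without TLR day 7 replicate 1 (-0.90, 0.0746) or BCR day 7 replicate 2 (-0.93, 0.0626), and that on H2-DMb2 without any 1 of the 6 libraries (-0.86 to -0.70). After GC correction Ciita passed too (-0.77), for 3 of 10 against 6.38% of genes. At days 4 and 10 none of the 10 differed between the cultures by limma, against 4.3% of genes higher and 3.27% lower at day 4 and 4.29% and 10.1% at day 10. An unadjusted p under 0.05 was reached by 0 genes at day 4 and by 1 (H2-DMb1) at day 10, and limma voom on recovered reads called 0 at both. After GC correction H2-DMb1 (-0.48) and Ciita (-0.58) passed at day 10, where 15.5% of genes were lower in TLR culture.

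From day 7 to day 10, when the labels change from plasmablast to plasma cell, the calls were falls in both cultures. In TLR culture 4 genes fell from day 7 to day 10 (H2-Aa, H2-DMb1, H2-DMb2 and H2-Ob) and 0 rose, against 4.69% and 3.51% of all genes. Cd74 had a higher mean at day 10, without passing (0.69 ± 0.51, limma adjusted p = 0.465). H2-Ob went to 12.25, 11.89 and 12.35 (-0.75 ± 0.16, limma adjusted p = 0.00743). The calls on H2-Aa, H2-DMb1 and H2-DMb2 were each lost without TLR day 7 replicate 2, TLR day 7 replicate 3 or TLR day 10 replicate 2, which left 1 call. That on H2-DMb1 was lost also without TLR day 7 replicate 1 or TLR day 10 replicate 3. Without 1 library the values were -0.76 to -0.54 for H2-Aa, -0.82 to -0.60 for H2-DMb2 and -0.85 to -0.63 for H2-DMb1 where the call was lost. In BCR culture 6 fell and 0 rose, against 5.91% and 10.8% of genes. Ciita went from 11.80, 12.42 and 12.47 to 10.70, 11.27 and 10.72 (-1.33 ± 0.30, 0.00543), and H2-DMb2 from 12.29, 12.50 and 12.41 to 10.88, 11.31 and 10.69 (-1.44 ± 0.21, 0.000319), both without overlap. Only 1 gene passed in each culture when the fit held just the groups compared. Over all genes that fit called 339 lower in TLR culture and 47 in BCR culture, against 914 and 1152 in the main fit. After GC correction 6 fell in TLR culture (9.33% of genes) and 9 in BCR culture (15% of genes).

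Over the whole course, 9 of 10 genes were lower at day 10 than at day 0 in both cultures, against 23.1% of all genes in TLR and 22.8% in BCR culture; none was higher, against 22.9% and 29.5%. H2-DMb1 (-3.08 ± 0.22), H2-DMb2 (-2.85 ± 0.21) and H2-Oa (-2.75 ± 0.59) had the largest differences in TLR culture, with limma adjusted p-values of 2.43e-09, 3.93e-09 and 0.000834. Ciita fell by 2.34 ± 0.30 and 1.85 ± 0.30 (4.1e-06 and 5.28e-05). Cd74 was the gene that did not pass: its values were 17.34, 15.95 and 16.00 in TLR day 10 and 16.49, 15.45 and 15.97 in BCR day 10, overlapping the 16.86, 16.63 and 16.97 of day 0 in TLR culture, with differences of -0.39 (0.562) and -0.85 (0.172). After GC correction all 10 were lower in BCR culture, Cd74 by 0.71, where 39.9% of genes were lower. Cd74 less Ciita, taken within each library on the log2 scale, was 3.93 to 4.29 at day 0 and 5.52 to 6.46 in TLR day 10, without overlap. It was 4.18 to 5.79 in BCR day 10.

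Macrophage and monocyte transcripts varied widely in the day 10 groups and in dEx1A BCR day 7, which is given below. The sum of 12 marker genes (Lyz2, Csf1r, Adgre1 and others, including Ctsl) was 2320 to 3085 normalised reads at day 0. It was 3009, 71225 and 10322 in the TLR day 10 libraries and 247373, 223909 and 31864 in the BCR day 10 libraries. Such cells express class II genes, and their part in these values was not tested. Without BCR day 10 replicates 1 and 2 together, 5 genes passed as lower from day 7 to day 10 and 9 from day 0 to day 10. That fit rests on replicate 3 alone, whose sum (31864) is also above day 0, and assumes that it varies like the other groups. Cd74 was highest in TLR day 10 replicate 1, the library with the lowest macrophage sum of its group and the highest GC offset (0.49).

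In the wild type LPS culture 7 of 10 genes were lower at day 4 than in day 0 B cells, against 30.8% of all genes. H2-Ob was 11.88, 12.02 and 11.99 (-2.68 ± 0.17, limma adjusted p = 3.76e-14), H2-DMb2 11.49, 11.42 and 11.58 (-2.13 ± 0.18, 1.37e-11) and Ciita 10.82, 10.69 and 10.79 (-1.98 ± 0.26, 1.09e-07), all below every day 0 value. These libraries differ from day 0 in sex, age and GC offset (0.80 to 0.81 against -0.29 to 0.13), which cannot be told apart from the culture. H2-Ab1 passed narrowly (-0.67 ± 0.27, 0.0368), lost the call without any 1 of the 6 libraries (-0.70 to -0.62), and was -1.77 after GC correction. All 10 were then lower, where 44.7% of genes were. From day 4 to day 7 no gene of the set passed in LPS culture by limma, 0 had an unadjusted p under 0.05, and 0 passed with limma voom, while 4.75% of all genes rose and 3.65% fell. H2-Ob was 12.19 in all 3 day 7 libraries. After GC correction Cd74 (0.53) rose and Ciita (-0.46) fell, against 8.07% and 9.49% of genes.

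H2-Ob was lower in dEx1A than in wild type cells at day 7 in all 3 cultures. In LPS culture, where both genotypes are 9-week females and both lie below 20 M reads, H2-Ob was 12.19, 12.19 and 12.19 in wild type and 11.60, 11.22 and 11.47 in dEx1A cells. The groups did not overlap, and the difference was -0.76 ± 0.17 (limma adjusted p = 0.00415), or -0.75 after GC correction. No other gene of the set passed there: 0 of 10 were higher and 1 lower, against 3.3% and 3.78% of all genes. GC offsets were 0.86 to 0.92 in wild type and 0.61 to 0.96 in dEx1A libraries. The B cell marker sum was lower too, at 47055 to 56022 normalised reads in dEx1A against 92297 to 106640 in wild type LPS day 7, and its part in the result was not tested.

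In TLR day 7, H2-Ob was 12.86, 12.96 and 12.91 in wild type and 11.39, 11.25 and 10.95 in dEx1A cells (-1.71 ± 0.17, limma adjusted p = 4.97e-09). In BCR day 7 it was 13.30, 13.31 and 12.92 against 11.00, 9.90 and 10.23 (-2.80 ± 0.17, 1.3e-13). Both gaps exceed the spread within groups, and both held after GC correction, at -1.32 and -2.60. Per kilobase the dEx1A BCR day 7 level was 519 ± 215 normalised reads against 3488 ± 513 in wild type, the lowest of the 15 groups. Ciita was 10.42, 10.61 and 10.50 against 10.85, 11.54 and 11.27 in TLR day 7 (-0.71 ± 0.26, 0.0211), and 11.02, 10.83 and 10.85 against 11.80, 12.42 and 12.47 in BCR day 7 (-1.33 ± 0.26, 9.18e-05), again without overlap. Its call in TLR culture was lost without wild type replicate 2 (-0.55, 0.106), wild type replicate 3 (-0.69, 0.0547) or dEx1A replicate 1 (-0.67, 0.059), and after quantile normalisation (-0.61, 0.0687), while after GC correction it was -1.36. The B cell marker sum was 31025 to 36354 in dEx1A against 55520 to 61793 normalised reads in wild type TLR day 7, and 28487 to 48038 against 71501 to 76924 in BCR day 7; its part was not tested. In these 2 cultures genotype cannot be told apart from sex, age and the depth and GC split of the libraries.

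Of the other calls in TLR and BCR day 7, some changed sign with the GC correction and some lost the call only. In TLR day 7, H2-Ab1 (1.17 ± 0.27), H2-DMa (1.63 ± 0.50) and H2-DMb1 (0.57 ± 0.21) were higher in dEx1A cells by limma (adjusted p = 0.000651, 0.00663 and 0.0207), so that 3 were higher and 2 lower, against 26.2% and 28.7% of genes. The call on H2-DMa was lost without wild type replicate 1 (1.23, 0.0629), and that on H2-DMb1 without wild type replicate 1 (0.48, 0.0905) or dEx1A replicate 1 (0.53, 0.0594). After correction 0 were higher and 7 lower, against 22.3% and 30.1%, with H2-Ab1 at -0.52 and H2-DMb1 at -0.41. In BCR day 7, H2-DMa (1.57 ± 0.50), H2-DMb1 (0.63 ± 0.21) and H2-DMb2 (0.61 ± 0.18) were higher and H2-Aa, H2-Ob and Ciita lower, against 25.8% and 25% of genes. After correction 0 were higher and 6 lower, against 26.7% and 29%, with H2-DMb1 at -0.37 and H2-DMb2 at -0.25, neither passing, and H2-Ab1 (-1.23), H2-Eb1 (-0.74), Cd74 (-0.93) and H2-Oa (-1.26) passing as lower. H2-DMa kept its direction without passing, at 0.57 (0.109) in TLR and 0.65 (0.0674) in BCR day 7, as did H2-Aa in BCR day 7 (-0.30, 0.225). dEx1A BCR day 7 replicate 1 was highest for all 10 genes, and without it H2-DMb1 (0.39, 0.14), H2-DMb2 (0.40, 0.0795) and H2-DMa (1.27, 0.0661) did not pass. H2-DMa (1.18, 0.0814) and H2-DMb1 (0.51, 0.075) were lost also without wild type replicate 1. H2-Aa (-0.51 ± 0.18, 0.022) was lost without wild type replicate 2, dEx1A replicate 2 or dEx1A replicate 3 (-0.45 to -0.36). Fibroblast markers (8 genes) summed to 4928 to 6984 normalised reads in dEx1A BCR day 7 against 445 to 538 in wild type, and their part was not tested. The macrophage and monocyte sum was 9060, 1608 and 33261 in dEx1A BCR day 7. It was 5584, 8145 and 2729 in wild type BCR day 7, and its part was not tested either.

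**Figure D3:**
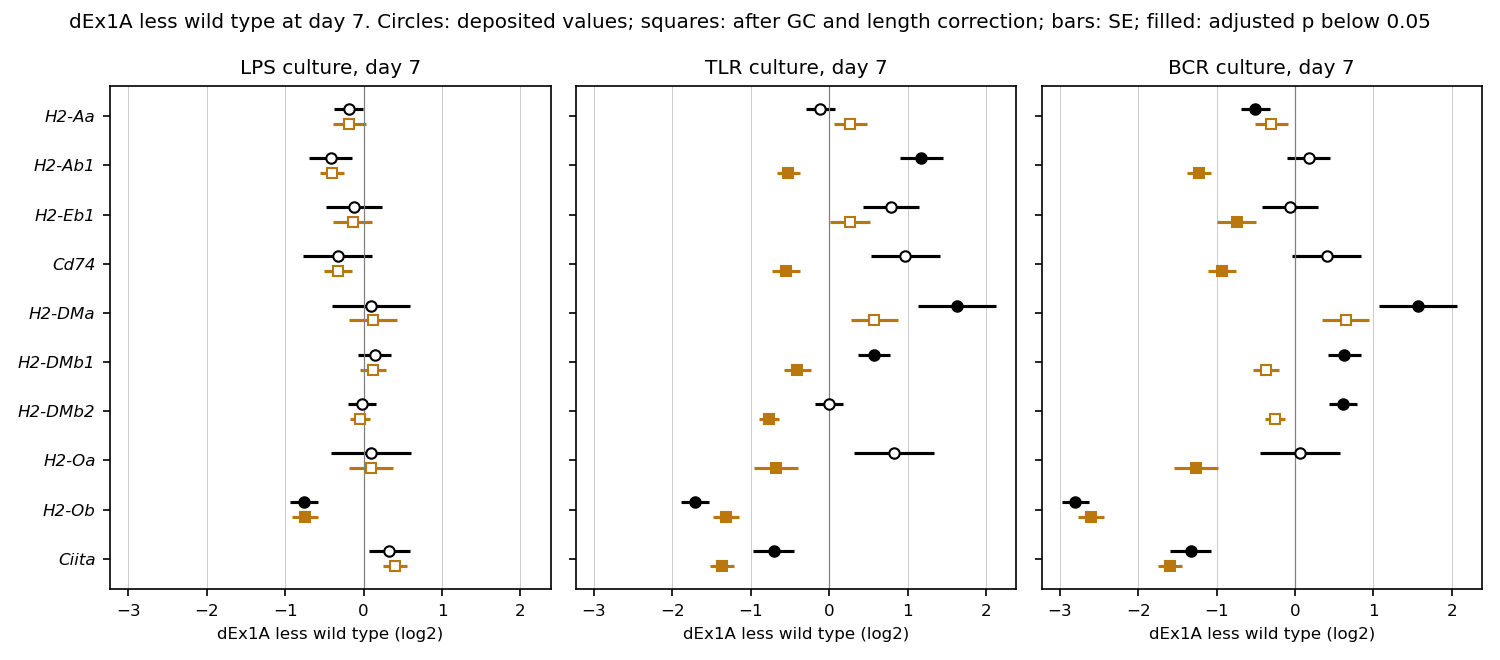
Difference between dEx1A and wild type cells at day 7 (horizontal, log2, bars are SE) for the 10 genes in LPS, TLR and BCR cultures, from 3 libraries per group, with circles for deposited values and squares for values corrected for GC and length, filled where the adjusted p is below 0.05. H2-Ob lies left of 0 in all 3 cultures on both scales, while H2-Ab1 and H2-DMb1 in TLR culture change sides.

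At day 4 the genotypes differed in 1 gene in TLR culture, 1 in LPS culture and 0 in BCR culture. H2-Ob was 11.70, 11.46 and 11.66 in wild type TLR culture and 10.95, 10.56 and 10.66 in dEx1A cells (-0.88 ± 0.17, limma adjusted p = 0.00174), a gap wider than either group. It was the 1 gene of 10 that passed, where 4.08% of genes were higher and 3.14% lower. The fit of these 2 groups alone did not call it (0.0966), and called 7 genes higher and 22 lower in all. The count was 3 without wild type replicate 3 and 5 without dEx1A replicate 2, and after GC correction H2-Oa (-1.03) passed with H2-Ob, against 5.39% of genes. In LPS day 4 only H2-Ab1 passed (-0.79 ± 0.27, 0.0332), against 12.6% of genes higher and 11.8% lower. That call was lost without 5 of the 6 libraries in turn, dEx1A replicate 3 being the exception (-0.82 to -0.64), and after GC correction (-0.28, 0.158). H2-DMb1, H2-DMb2, H2-Oa and Ciita then passed as higher, against 20.6% of genes. These LPS day 4 groups match in sex and age but lie on either side of the depth split. Their GC offsets were 0.80 to 0.81 in wild type and -0.53 to 0.37 in dEx1A libraries. Genotype cannot be told apart from that split here. In BCR day 4 none passed by limma, limma voom or after GC correction, and 0 had an unadjusted p under 0.05, against 1.19% and 0.669% of genes.

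The change from day 4 to day 7 differed between genotypes for some genes. In all 3 cultures the dEx1A change crosses the depth and GC split and the wild type change does not. Genotype cannot be told apart from that split in these tests. In wild type BCR culture H2-Ob rose, and in dEx1A BCR culture it fell from 11.88, 11.74 and 11.53 to 11.00, 9.90 and 10.23 (-1.34 ± 0.17, limma adjusted p = 3.95e-07). The test of that difference gave -2.93 ± 0.25 (7.5e-10), or -2.67 after GC correction. Ciita differed likewise (-1.25 ± 0.37, 0.00995). They and H2-Aa were the 3 genes with a lower change in BCR culture, against 17.5% of genes, with 0 higher (16.4%). Corrected, 6 were lower and 0 higher, against 19.8% and 17.5%, and H2-Aa (-0.60, 0.115) was not among them. In TLR culture the difference for H2-Ob was -0.83 ± 0.25 (0.00636), but -0.23 (0.448) after GC correction and -0.46 (0.143) after quantile normalisation. There 6 GC-rich genes had a higher change and H2-Ob a lower one, against 24.3% and 25.1% of genes. Corrected, 1 was higher (H2-DMa) and 3 lower, against 17.3% and 23.8%. The count of 7 fell to 4 without wild type TLR day 4 replicate 1 or 2, dEx1A TLR day 4 replicate 1 or 3, or wild type TLR day 7 replicate 1. In LPS culture none passed by limma or limma voom (3.3% of genes higher, 2.18% lower), and 1, H2-Ob, had an unadjusted p under 0.05 (-0.79 ± 0.25, adjusted p = 0.0541).

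Within dEx1A cells, which share sex and age, the other steps were as follows. In all 3 cultures day 4 libraries lie above 20 M reads and day 7 libraries below. GC offsets were -0.93 to -0.23 and then 0.65 to 1.48 in BCR culture. In LPS culture they were -0.53 to 0.37 and then 0.61 to 0.96. The day cannot be told apart from this split. From day 4 to day 7 in TLR culture 6 genes rose and 1 fell, against 29.3% and 32.8% of genes. The rises of Cd74 (2.19), H2-Oa (2.07), H2-Eb1 (1.94) and H2-Ab1 (1.85) came with a change of GC offset from between -1.65 and -0.31 to between 0.77 and 1.44. After GC correction 5 rose and 3 fell, against 25.2% and 42.1%, and H2-Ab1 (0.15, 0.393) no longer passed. In BCR culture 4 rose and 1 fell, against 26.2% and 27.7%. The count of 5 was 3 without BCR day 4 replicate 1 and 2 without BCR day 4 replicate 3 or BCR day 7 replicate 1. Corrected, 0 rose and 4 fell, against 19.6% and 34.7%. In LPS culture H2-DMb2 (-0.52), H2-Ob (-0.57) and Ciita (-0.70) fell and 0 rose, against 17.8% and 16.3% of genes. After GC correction H2-Ob did not pass (-0.40, 0.051) and H2-DMb1 did (-0.51, 0.0141), again 3 lower and 0 higher, against 26.8% and 18.1%. Quantile normalisation ended the calls on Ciita (-0.70, 0.055) and H2-DMb2 (-0.50, 0.0695). Each of the 3 falls was lost without LPS day 7 replicate 2, and H2-DMb2 without LPS day 4 replicate 3, H2-Ob without LPS day 4 replicate 1 and Ciita without any 1 LPS day 4 replicate; the values were then -0.42 to -0.38 for H2-DMb2, -0.48 to -0.46 for H2-Ob and -0.78 to -0.44 for Ciita.

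TLR and BCR cultures of dEx1A cells differed in the H2-DM β genes at day 7. H2-DMb2 was 11.61, 11.61 and 11.60 in TLR culture and 13.43, 12.91 and 12.69 in BCR culture, without overlap (-1.40 ± 0.18, limma adjusted p = 3.16e-07), and H2-DMb1 was lower by 1.05 ± 0.21 (0.000189). The same direction was seen in wild type cells at day 7. H2-Ob was higher in TLR culture (0.82 ± 0.17, 0.000478), though 11.00 in BCR replicate 1 exceeded 10.95 in TLR replicate 3, and the fit of these 2 groups alone did not call it (0.0766). This makes 1 higher and 2 lower, against 13.2% and 18.3% of genes, and corrected 2 higher and 4 lower, against 17.7% and 28.5%. At day 4, 6 genes were lower in TLR culture and 0 higher, against 9.28% and 7.39% of genes. Of these H2-Ob (-0.99 ± 0.17, 8.18e-05) kept its call without any 1 library. The other 5 (H2-Aa, H2-Ab1, H2-Eb1, H2-DMb2 and Ciita) each lost it without TLR replicate 1, TLR replicate 3 or BCR replicate 2, which left 1 call, with H2-Aa then at -0.60 to -0.58, H2-Ab1 at -0.71 to -0.66, H2-Eb1 at -1.04 to -0.93, H2-DMb2 at -0.52 to -0.46 and Ciita at -0.81 to -0.78. H2-Ab1 (-0.79) and H2-DMb2 (-0.52) lost it also without BCR replicate 1. After GC correction 4 were lower and 0 higher, against 13.9% and 10.5% of genes, and H2-Ab1 (-0.39, 0.0633) and H2-DMb2 (-0.30, 0.0847) did not pass.

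H2-Ob and H2-DMb2 both fell from day 0 to day 4 and from day 7 to day 10 in wild type TLR and BCR culture, by different amounts, and their difference was taken within each library. H2-Ob less H2-DMb2 was 0.74 to 1.23 on the log2 scale at day 0. It was -1.57 to -0.91 in wild type TLR day 4 and -1.62 to -1.15 in BCR day 4, and returned to 1.20 to 1.43 and 0.51 to 1.01 at day 7. In dEx1A cells it was -0.65 to -0.22 in TLR day 7 and -3.01 to -2.43 in BCR day 7. Wild type LPS libraries were at 0.39 to 0.60 at day 4 and at 0.53 to 1.11 at day 7, the latter overlapping day 0. dEx1A LPS libraries were at -0.07 to 0.49 over both days. After GC correction the dEx1A TLR day 7 means were level, at 11.36 for H2-Ob and 11.35 for H2-DMb2. In wild type TLR day 7 they were 12.67 and 12.12. The corrected BCR day 7 means were 10.51 and 12.51 in dEx1A cells, against 13.11 and 12.76 in wild type cells. All these values are of RNA only.

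**Figure D4:**
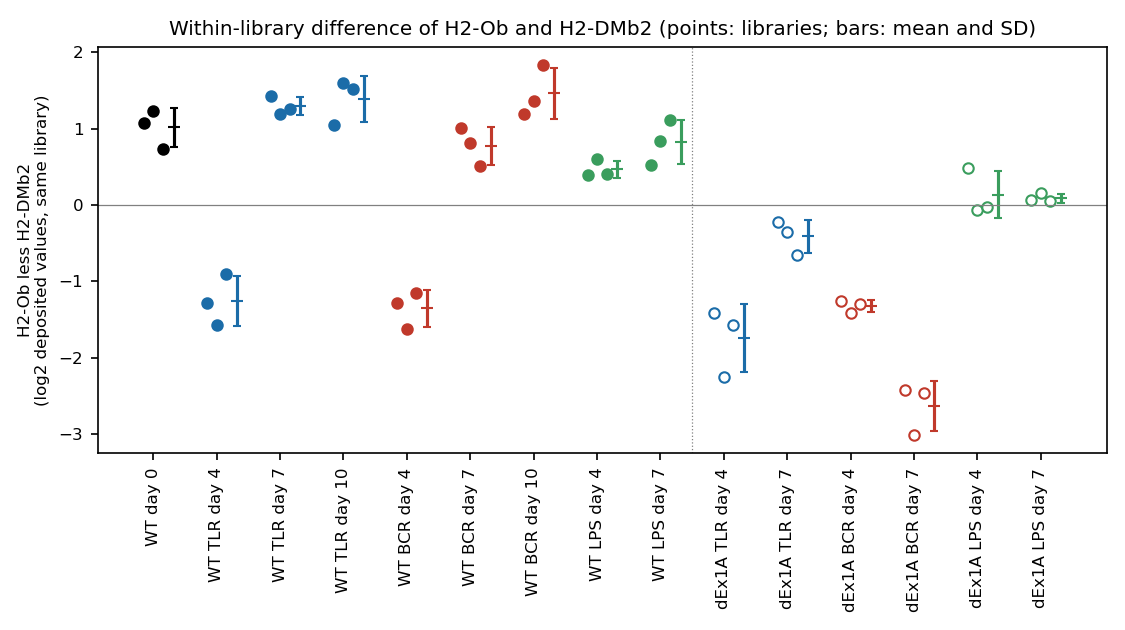
H2-Ob less H2-DMb2 in the same library (vertical, difference of log2 deposited values) by group (horizontal), 3 libraries per group as points, with the mean and SD as bars beside them; filled points are wild type, open points dEx1A, and black, blue, red and green stand for day 0, TLR, BCR and LPS. Wild type TLR and BCR libraries lie below 0 at day 4 and above 0 at days 7 and 10, whereas all dEx1A TLR and BCR libraries lie below 0. The values shown are not corrected for GC.

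The other class II pathway genes (20 listed, 19 tested; H2-Ea-ps did not pass the filter) moved in both directions. At TLR day 4, 2 rose and 8 fell against day 0 (median -0.62), where 24.9% and 23.5% of all genes did. At BCR day 4, 2 rose and 7 fell (-0.46), against 26.1% and 24.5%. March1, a ubiquitin ligase that targets surface class II, fell most, from 12.61, 12.54 and 12.33 to 7.60, 7.51 and 8.16 in TLR culture (-4.74 ± 0.25, limma adjusted p = 5.36e-11) and to 7.87, 7.84 and 8.26 in BCR culture (-4.50 ± 0.25, 9.57e-11). Its relative March8 rose by 2.29 ± 0.20 in TLR and 2.31 ± 0.20 in BCR culture. H2-Eb2 fell by 2.58 ± 0.23 in TLR culture, and Rfx5, a subunit of RFX, fell by 1.92 ± 0.13 in BCR culture. Each also fell in the other culture. After GC correction H2-Eb2 differed by -1.96 in BCR culture and Rfx5 by -1.82 in TLR culture.

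March1 values at day 7 lay apart between genotypes in TLR and BCR culture. It rose from day 4 to day 7 in wild type cells, to 10.38, 9.94 and 10.61 in TLR and 10.91, 10.32 and 10.31 in BCR culture (2.55 ± 0.25 and 2.52 ± 0.25, limma adjusted p = 3.58e-07 and 5.51e-07). In dEx1A cells day 7 values were 7.76, 7.47 and 6.92 in TLR and 6.92, 6.59 and 7.55 in BCR culture, all below every wild type value, with genotype differences of -2.93 ± 0.32 (1.35e-08) and -3.49 ± 0.32 (2.9e-10). The day 4 to day 7 change differed between genotypes by -3.08 ± 0.45 and -2.95 ± 0.45 (4.93e-06 and 1.12e-05), or -1.95 and -2.36 after GC correction, a test given for this gene after its values were seen. In wild type LPS culture March1 was at 6.15 to 6.20 at day 4 and 6.39 to 7.02 at day 7. At LPS day 4 it was higher in dEx1A cells, at 7.58 to 8.72 (1.95 ± 0.32, limma adjusted p = 2.71e-05). After GC correction that difference was 1.47, between groups on either side of the depth and GC split. In all, 3 of the 19 pathway genes were higher and 9 lower in dEx1A TLR day 7, and 3 and 8 in BCR day 7. Of all genes 26.2% were higher and 28.7% lower in TLR day 7, and 25.8% and 25% in BCR day 7.

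At LPS day 7, where the genotypes match in sex, age and depth, 1 pathway gene was higher and 3 lower in dEx1A cells, against 3.3% and 3.78% of genes. H2-Eb2 (-0.88 ± 0.14, limma adjusted p = 2.64e-05), March8 (-0.93 ± 0.17, 0.00036) and the protease gene Lgmn (-0.98 ± 0.24, 0.00716) were the lower ones, and Lgmn lost its call without wild type replicate 3 (-0.85, 0.0623). Over the whole course at day 10, 7 rose and 9 fell in TLR culture, against 22.9% and 23.1% of genes, and 6 rose and 8 fell in BCR culture, against 29.5% and 22.8%. The lysosomal proteases Ctsl (4.87 ± 0.78 and 8.40 ± 0.78) and Ctsd (3.65 ± 0.69 and 6.01 ± 0.69) rose in both, in the groups with the macrophage sums given above; Ctsl is on that marker list too. Without BCR day 10 replicates 1 and 2 the BCR values were 6.64 and 4.02. Class I presentation genes, measured alongside, gave 2 higher and 3 lower of 9 at TLR day 10 against day 0, with a median of -0.41 against -2.29 for the class II set. At BCR day 10 they gave 1 higher and 4 lower, with medians of -0.96 and -2.035. At TLR day 4 against day 0, 1 was higher and 0 lower (median 0.08), against 24.9% and 23.5% of genes. At BCR day 4, 0 were higher and 5 lower (median -0.53), against 26.1% and 24.5%. The difference between these lists was not tested.

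Across the 15 group means the members did not all move together. Pearson r was 0.95 for H2-Ab1 with H2-Eb1, 0.93 for H2-DMb1 with H2-DMb2 and 0.89 for H2-Aa with Ciita. It was 0.11 for Cd74 with Ciita, -0.23 for H2-DMa with H2-Ob and -0.28 for Cd74 with H2-DMb2. Among 6589 other genes, those most like the mean of H2-Aa, H2-Ab1, H2-Eb1 and Cd74 over the 15 group means were Acap1 (r = 0.95), Map4k2 (0.95), Mast3 (0.94), Gmip (0.93) and Stk11ip (0.93), whose transcripts are 53.2% to 59.9% GC. Those most like Ciita were Sorl1 (0.92), Arhgap17 (0.90), Trim5 (0.87), Trim12a (0.87) and Rab39 (0.86). The group means share the libraries' GC offset, and these values are descriptions.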

How the data were processed

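RNA of 45 cultures or B cell samples was sequenced as 76-base single reads (TruSeq Stranded Total RNA), per the labels' protocols. DESeq2 (1.22.2), RSEM (1.3.0), STAR (2.6.0c), Trim Galore (0.6.0) and FastQC (0.11.8) are listed, with R (3.5.1), by the submitters' processing notes. The authors deposited log2 values from a variance-stabilizing transformation in 2 tables, of 21 wild type libraries and of 39 libraries of both genotypes, with 15 columns in both that hold identical values. A gene without reads stands at 3.04 on this scale. Reads were recovered by inverting the transformation: 94.0% to 100% of values under 20 reads came within 0.1 of a whole number, against 20% by chance. Depth was 15.1 to 35.6 M reads (M, 10 to the power 6), median 23.3 M.

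Genes 1 or more above the floor in 3 libraries were tested, 19497 and 20331 in the 2 tables. Group means were compared with limma 3.58.1 in R 4.3.3, with all groups of a table in 1 fit, a mean-variance trend and Benjamini-Hochberg adjustment within each of 27 comparisons, at 0.05. Comparisons with wild type LPS or dEx1A groups used the table of both genotypes. The step was checked on simulated data. Alternatives were a correction for GC content and length in each library, quantile normalisation, no filter, only the groups compared, a replicate block, each library left out, BCR day 10 replicates 1 and 2 left out, and limma voom on recovered reads, chosen after seeing the data.

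All 10 members are named. Other pathway genes are named where they were among the 3 largest differences with an adjusted p below 0.05 and no overlap. The members and lists were chosen with earlier results of these data known. The protocol text calls the mice matched for sex and age, while the sample labels differ as described. A marker of the B cell list is not reported here and is not in its sum.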

Additional observations from a re-analysis of the deposited data

Results flagged for a closer look

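In TLR culture the change from day 4 to day 7 differed between genotypes for 7 genes by limma's test of the interaction (dEx1A change less wild type change, log2): H2-Ab1 1.48, H2-Eb1 1.45, Cd74 1.69, H2-DMa 2.60, H2-DMb1 0.71, H2-Oa 2.29 and H2-Ob -0.83. The dEx1A change crosses the split in depth and GC offset and the wild type change does not, and its part was not tested. After GC correction H2-DMa (1.20) and H2-Ab1 (-0.70, the other direction) passed. H2-Eb1 lost its call without wild type TLR day 4 replicate 1 or 2, dEx1A TLR day 4 replicate 1 or 3, or wild type TLR day 7 replicate 1 (1.16 to 1.27), and Cd74 without any of these or dEx1A TLR day 7 replicate 3 (1.32 to 1.57). H2-DMb1 lost it without 9 of the 12 libraries in turn (0.59 to 0.76), wild type TLR day 4 replicate 3, dEx1A TLR day 4 replicate 2 and wild type TLR day 7 replicate 2 being the exceptions.

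In BCR culture the same test gave H2-Aa -0.84, H2-Ob -2.93 and Ciita -1.25. The dEx1A change crosses the depth and GC split there too, and its part was not tested. H2-Ob and Ciita passed after GC correction as well (-2.67 and -1.67), and all 3 kept their calls without any 1 library.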

How the results depend on the processing

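Of 112 calls on the 10 genes, 73 held without any 1 library and 39 did not, and none changed sign. GC correction kept 89, ended 15 and reversed 8. The reversed values were, for dEx1A less wild type, H2-Ab1 -0.52 and H2-DMb1 -0.41 in TLR day 7 and H2-DMb1 -0.37 and H2-DMb2 -0.25 in BCR day 7. H2-DMb1 was -0.19 for dEx1A BCR day 7 less day 4, and the TLR interaction was -0.70 for H2-Ab1, -0.27 for Cd74 and -0.54 for H2-DMb1. The cause was not tested. Counts of members passing moved with GC correction to 7 (TLR day 7 less 4), 2 (TLR less BCR day 10), 2 (LPS day 7 less 4), 4 and 2 (genotype, LPS and TLR day 4), 4 and 6 (interactions, TLR and BCR) and 6 (dEx1A TLR less BCR day 7). With only the groups compared they were 1 (TLR day 10 less 7), 3 (BCR day 7 less 4), 1 (BCR day 10 less 7), 1 (LPS day 7 less 4), 2, 0 and 3 (genotype, LPS day 4, TLR day 4 and BCR day 7), 1 (LPS interaction) and 2 (dEx1A TLR less BCR day 4). Calls over all genes moved with this setting too. For genotype in TLR day 4 they went from 830 higher and 639 lower to 7 and 22. For LPS day 7 less 4 they went up, from 965 and 743 to 1851 and 1772. Quantile normalisation gave 2 for BCR day 7 less 4.

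Leaving out 1 library, the counts ran from 8 to 9 and 7 to 9 (day 4 less 0, TLR and BCR), 3 to 4 and 2 to 7 (day 7 less 4), 1 to 4 and 5 to 6 (day 10 less 7), 0 to 2 and 0 to 1 (TLR less BCR, days 7 and 10), and stood at 6 for LPS day 4 less 0. For genotype they ran from 0 to 1 (LPS day 4), 1 to 5 (TLR day 4), 3 to 6 (TLR day 7) and 3 to 6 (BCR day 7), for interactions 0 to 1, 4 to 7 and 3 to 4 (LPS, TLR, BCR), for dEx1A steps 0 to 3, 5 to 7 and 2 to 6, and for dEx1A TLR less BCR 1 to 8 and 3 to 4.

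Sample titles repeat the same replicate numbers over the groups, in wild type also over males and females, and do not say that a number is 1 mouse. Replicate numbers were not taken to pair the libraries in the main fit. Not every same-numbered pair correlated above 0.1, which does not settle whether the libraries are paired. The median correlation of same-numbered libraries was 0.034 over 63 wild type pairs, with 28 above 0.1 (-0.008 for other numbers). It was 0.184 over 3 wild type LPS pairs, 2 above 0.1 (-0.08), and 0.183 over 45 dEx1A pairs, 24 above 0.1 (-0.101). With a replicate block 1 gene more passed in the LPS interaction (1), in BCR day 7 less 4 (6) and in LPS day 4 less 0 (8), H2-Ab1 lost its call in dEx1A TLR less BCR day 4 (adjusted p = 0.0535 in limma), and the other 111 calls held.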
